A study of Mus musculus with 23 samples.

Results

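The CXC chemokines are small secreted proteins that direct the movement of leukocytes. The 9 genes of this family listed next were described here in bone marrow-derived macrophages, namely Cxcl1, Cxcl2, Cxcl3, Cxcl5, Cxcl9, Cxcl10, Cxcl11, Cxcl14 and Cxcl16. They were listed by name, with earlier results of these data known. Of these 9 genes, 8 had an array probe whose accession matched the gene, on 9 probes in all, among 26512 genes and transcript entries tested. No probe matched Cxcl11, which the RefSeq table lists as a transcribed pseudogene, and no value is given for it. The macrophages were grown with M-CSF from bone marrow of male C57BL/6 mice of 10 to 14 weeks and kept for 120 min in medium or with 100 ng/ml LPS, the cell wall component of Gram-negative bacteria that Tlr4 recognises. The wt groups held 4 arrays in medium and 4 after LPS, from mice of 12 to 13 weeks. The MK2-/- groups, without the p38-activated kinase MK2 that Mapkapk2 encodes, held 3 arrays in medium and 4 after LPS, from mice of 10 to 13 weeks. The MK2/3-/- groups, without MK2 and its relative MK3 that Mapkapk3 encodes, held 4 and 4 arrays, from mice of 11 to 14 weeks. The deletions were carried by the whole animal, and no arrays of cells lacking MK3 alone were analysed here. Each genotype was hybridised on a slide of its own, so that genotype and slide cannot be told apart. Medium and LPS arrays of the same genotype lay together on 1 slide.

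Signals are given as log2 of the quantile-normalised fluorescence intensity, and each array measured RNA of a whole culture. Between 47.54% and 69.09% of the probes of an array were well above background, both extremes in the MK2/3-/- medium group, and no spot was marked as saturated. On the LPS arrays this share was 56.19% to 60.81% in wt, 49.6% to 52.48% in MK2-/- and 48.46% to 55.45% in MK2/3-/- cells. Every wt LPS array thus lay above every LPS array of the other genotypes, and the bearing of this on the genotype differences was not tested. After LPS the Mapkapk2 signal was 2.81 log2 units lower in MK2-/- than in wt cells (adjusted p = 2.45e-05, limma) and 3.01 lower in MK2/3-/- cells (adjusted p = 2.65e-06). The Mapkapk3 signal after LPS was 13.98 in MK2-/-, 14.01 in wt and 10.70 in MK2/3-/- cells (adjusted p = 1.17e-09 for MK2/3-/- against wt). Within each treatment, the targeted genes followed the labels on every array, and where the probes lie relative to the deleted parts is not given in the sources used here. Of 9 listed macrophage markers, 8 had a probe, and all 8, among them Adgre1 and Csf1r, were well above background on all 23 arrays.

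Members of the family fall into groups by the receptor they bind. Cxcl1, Cxcl2, Cxcl3 and Cxcl5 act on Cxcr2 and attract neutrophils. Cxcl9 and Cxcl10 act on Cxcr3 and attract activated T cells and NK cells, and interferons are known inducers of both genes. Cxcl14 is produced constitutively in many tissues, and Cxcl16 is a transmembrane chemokine that binds Cxcr6 and is released by proteases such as Adam10. LPS signalling through Tlr4 activates NF-kB and, through Irf3, interferon beta, and the MK2 pathway is known for its part in the stability and translation of inflammatory mRNAs.

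The neutrophil-attracting and the interferon-induced genes lie in clusters on chromosome 5 (GRCm38.p6). The former are Cxcl5 at chr5:90759298-90761625, Cxcl3 at chr5:90786101-90788093, Cxcl1 at chr5:90891245-90893121 and Cxcl2 at chr5:90903899-90905938. The latter are Cxcl9 at chr5:92321331-92328079 and Cxcl10 at chr5:92346638-92348889, with Cxcl11 beside them at chr5:92359544-92363296. Cxcl14 lies at chr13:56288643-56296811 and Cxcl16 at chr11:70454389-70459984. The RefSeq promoter table for GRCm38.p6 held 6 of the 9 members, and the 250 bases before each start were searched on both strands for NF-kB-type letters (GGAATTTCC or GGGANTTCC) and for interferon response element-type letters (GAAANNGAAA), all chosen after the promoters had been seen. The promoters of the 5 members with the largest responses to LPS are shown here from 5′ to 3′ up to the base before the start, with the matches in capitals.
Cxcl1, chr5:90891145-90891244, plus strand: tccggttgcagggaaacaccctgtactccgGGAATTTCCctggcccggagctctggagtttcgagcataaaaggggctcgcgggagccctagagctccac
Cxcl2, chr5:90903799-90903898, plus strand: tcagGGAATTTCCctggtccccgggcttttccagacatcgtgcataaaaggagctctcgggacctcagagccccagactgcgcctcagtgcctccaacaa
Cxcl3, chr5:90786001-90786100, plus strand: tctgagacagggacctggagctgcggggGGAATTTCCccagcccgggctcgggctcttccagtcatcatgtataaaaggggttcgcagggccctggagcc
Cxcl9, chr5:92328080-92328329, minus strand: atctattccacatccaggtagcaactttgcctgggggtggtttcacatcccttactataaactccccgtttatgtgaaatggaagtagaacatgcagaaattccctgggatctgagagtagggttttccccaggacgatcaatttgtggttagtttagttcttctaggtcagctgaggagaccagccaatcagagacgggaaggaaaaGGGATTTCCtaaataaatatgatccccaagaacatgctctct
Cxcl10, chr5:92348890-92349139, minus strand: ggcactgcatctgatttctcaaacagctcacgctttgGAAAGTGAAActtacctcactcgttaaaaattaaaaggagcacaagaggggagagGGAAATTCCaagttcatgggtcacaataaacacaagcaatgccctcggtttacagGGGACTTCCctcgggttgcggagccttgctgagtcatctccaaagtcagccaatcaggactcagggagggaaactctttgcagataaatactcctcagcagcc
The same letters, GGAATTTCC, stood from base -70 to -62 before the start of Cxcl1, from -96 to -88 in Cxcl2 and from -72 to -64 in Cxcl3. These letters occurred in 0.286% of the 32851 promoters searched in the same way. Cxcl9 held GGGATTTCC from -42 to -34. Cxcl10 held GGAAATTCC from -158 to -150, which is GGAATTTCC on the other strand, GGGACTTCC from -103 to -95 and GAAAGTGAAA from -213 to -204. GGGANTTCC occurred in 1.43% and GAAANNGAAA in 2.98% of all promoters, and no matches overlapped each other. The Cxcl14 promoter held GAAACAGAAA from -172 to -163 and no NF-kB-type letters. These matches describe sequence and no binding was measured.

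LPS raised the signals of 6 of the 8 measured members in every genotype, namely the 4 neutrophil-attracting chemokines together with Cxcl9 and Cxcl10, whereas none was called lower. Of all genes tested, 8.16% were called higher after LPS in wt, 8.41% in MK2-/- and 11.9% in MK2/3-/- cells. The median difference over the 8 members was 7.83 log2 units in wt, 7.61 in MK2-/- and 6.68 in MK2/3-/- cells, beside medians of 0.01, -0.01 and -0.02 over all genes. The 6 calls held in every genotype under all 38 other settings tried.

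**Figure D1:**
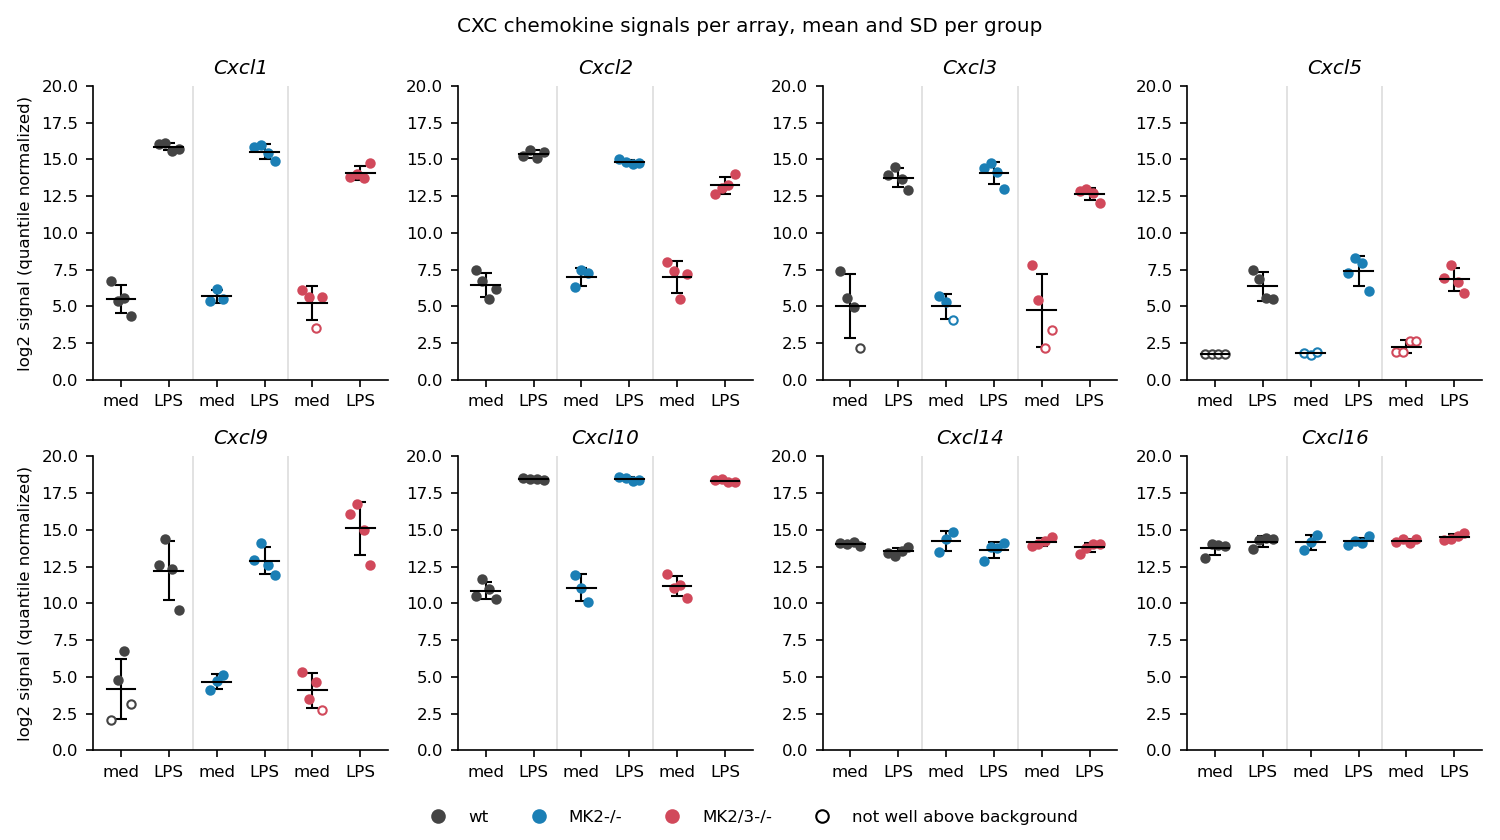
Log2 signal (quantile normalised, vertical axis) of the 8 measured CXC chemokines on each of the 23 arrays, by genotype (colour) and by medium (med) or LPS, with group mean and SD as bars and open points for signals not well above background. Cxcl1, Cxcl2, Cxcl3, Cxcl5, Cxcl9 and Cxcl10 were higher on every LPS array than on every medium array of the same genotype, whereas Cxcl14 and Cxcl16 stayed between 12.88 and 14.87 on all arrays.

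Cxcl1 showed one of the largest increases on the arrays, ranking 4 of 26512 in wt, 6 in MK2-/- and 13 in MK2/3-/- cells. In wt cells its log2 signal, by replicate, was 6.71, 5.38, 5.59 and 4.33 in medium and 16.06, 16.11, 15.60 and 15.73 after LPS. In MK2-/- cells it was 5.38, 6.19 and 5.49 in medium and 15.86, 15.98, 15.42 and 14.91 after LPS. In MK2/3-/- cells it was 6.15, 5.65, 3.51 and 5.63 in medium and 13.82, 14.01, 13.75 and 14.75 after LPS. For this and the other members, MK2-/- medium replicate 3 was taken as the culture of MK2-/- LPS replicate 4. MK2-/- LPS replicate 3 had no medium array. Every LPS array of MK2/3-/- cells was below every LPS array of the other genotypes. The increases were 10.37 (SE 0.49, adjusted p = 1.25e-11), 9.85 (SE 0.53, adjusted p = 1.27e-10) and 8.85 log2 units (SE 0.49, adjusted p = 1.33e-10) in wt, MK2-/- and MK2/3-/- cells, or 1324-fold, 924.1-fold and 460.3-fold. The last rests on medium arrays of which replicate 3 was not well above background.

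Cxcl2 lies beside Cxcl1 in the genome and, like it, attracts neutrophils. Its log2 signal in wt cells was 7.46, 6.75, 5.49 and 6.18 in medium and 15.21, 15.66, 15.11 and 15.51 after LPS. In MK2-/- cells it was 6.34, 7.47 and 7.25 in medium and 15.03, 14.83, 14.68 and 14.78 after LPS. In MK2/3-/- cells it was 8.02, 7.43, 5.49 and 7.19 in medium and 12.66, 13.07, 13.26 and 14.02 after LPS. The genotypes overlapped in medium and formed 3 separate ranges after LPS. LPS raised Cxcl2 by 8.90 (SE 0.45, adjusted p = 4.25e-11), 7.81 (SE 0.49, adjusted p = 1e-09) and 6.22 log2 units (SE 0.45, adjusted p = 5.09e-09) in wt, MK2-/- and MK2/3-/- cells, or 478.6-fold, 224.7-fold and 74.66-fold.

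Cxcl3 varied more between the medium cultures than Cxcl1 or Cxcl2. Its log2 signal in wt cells was 7.40, 5.57, 4.98 and 2.20 in medium and 13.94, 14.47, 13.70 and 12.91 after LPS. In MK2-/- cells it was 5.71, 5.28 and 4.08 in medium and 14.41, 14.76, 14.17 and 12.99 after LPS. In MK2/3-/- cells it was 7.84, 5.45, 2.20 and 3.41 in medium and 12.87, 12.97, 12.71 and 12.07 after LPS. In medium the signal was not well above background on 1 wt, 1 MK2-/- and 2 MK2/3-/- arrays. LPS raised Cxcl3 by 8.72 (SE 1.00, adjusted p = 2.64e-06), 9.06 (SE 1.08, adjusted p = 4.18e-06) and 7.93 log2 units (SE 1.00, adjusted p = 5.93e-06) in the same order of genotypes.

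Cxcl5, which also acts on Cxcr2, could be measured after LPS and not in medium. In medium its signal was not well above background on any array, with log2 signals from 1.72 to 2.64. After LPS it was well above background on all 12 arrays, at 7.49, 6.89, 5.57 and 5.52 in wt, at 7.30, 8.32, 7.98 and 6.06 in MK2-/- and at 6.96, 7.80, 6.68 and 5.90 in MK2/3-/- cells. For a bound, medium was set to the dimmest signal well above background on each array. Against that level, Cxcl5 after LPS was 7.63-fold higher in wt, 14.5-fold in MK2-/- and 9.94-fold in MK2/3-/- cells. These bounds are rough, since brighter signals can also fail to be well above background. The limma test took the signals as measured and not these folds (adjusted p = 7.35e-07 in wt, 1.56e-07 in MK2-/- and 5.18e-07 in MK2/3-/- cells).

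Cxcl9 had the highest-ranking increase of the members in MK2/3-/- cells, at 4 of 26512, beside 20 in wt and 17 in MK2-/- cells. In wt cells its log2 signal was 2.07, 4.79, 6.76 and 3.13 in medium and 12.60, 14.38, 12.37 and 9.58 after LPS. In MK2-/- cells it was 4.13, 4.74 and 5.15 in medium and 12.92, 14.14, 12.64 and 11.95 after LPS. In MK2/3-/- cells it was 5.37, 3.52, 4.67 and 2.77 in medium and 16.10, 16.75, 15.03 and 12.62 after LPS. In medium the signal was not well above background on 2 wt arrays and 1 MK2/3-/- array. LPS raised Cxcl9 by 8.04 (SE 1.05, adjusted p = 1.38e-05), 8.24 (SE 1.13, adjusted p = 2.38e-05) and 11.04 log2 units (SE 1.05, adjusted p = 1.7e-07) in wt, MK2-/- and MK2/3-/- cells. The second Cxcl9 probe, well above background on every array, gave 5.91, 6.19 and 8.34 log2 units for the same differences, the last below the 8.85 of Cxcl1, so that the place of Cxcl9 before Cxcl1 in MK2/3-/- cells rests on 1 probe.

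Cxcl10 was well above background on every array, and its LPS arrays lay close together in each genotype. Its log2 signal in wt cells was 10.52, 11.64, 11.00 and 10.30 in medium and 18.54, 18.49, 18.47 and 18.40 after LPS. In MK2-/- cells it was 11.97, 11.08 and 10.13 in medium and 18.60, 18.54, 18.32 and 18.42 after LPS. In MK2/3-/- cells it was 12.02, 11.03, 11.28 and 10.40 in medium and 18.38, 18.45, 18.24 and 18.24 after LPS. LPS raised Cxcl10 by 7.61 (SE 0.34, adjusted p = 6.53e-12), 7.41 (SE 0.37, adjusted p = 4.28e-11) and 7.14 log2 units (SE 0.34, adjusted p = 1.7e-11). After LPS its probe stood between ranks 9 and 32 of the 55681 probes on every array, and quantile normalisation gives the probes at these top ranks the same values on all arrays, so that genotype differences of Cxcl10 after LPS are bounded by the method.

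Cxcl14 and Cxcl16 were not called in any genotype. Cxcl14 signals in medium were 14.14, 14.05, 14.17 and 13.91 in wt, 13.53, 14.39 and 14.87 in MK2-/- and 13.88, 14.02, 14.24 and 14.53 in MK2/3-/- cells. After LPS they were 13.47, 13.26, 13.58 and 13.84 in wt, 12.88, 13.83, 13.78 and 14.13 in MK2-/- and 13.38, 13.76, 14.07 and 14.05 in MK2/3-/- cells. In all 11 cultures with both a medium and an LPS array the LPS value of Cxcl14 was the lower one, by 0.07 to 0.79 log2 units. The mean differences were -0.53 (adjusted p = 0.223), -0.61 (adjusted p = 0.174) and -0.35 (adjusted p = 0.4) in wt, MK2-/- and MK2/3-/- cells, and the last was 0.05 when arrays were scaled to their 75th percentile. Without MK2-/- medium replicate 1 the Cxcl14 difference in MK2-/- cells was -0.98 (adjusted p = 0.0266). Cxcl16 was higher after LPS in 9 of the 11 cultures, and its mean differences were 0.46 (SE 0.23, adjusted p = 0.222), 0.08 (SE 0.25, adjusted p = 0.905) and 0.25 (SE 0.23, adjusted p = 0.495). Scaling to the 75th percentile gave Cxcl16 a difference of 0.81 in wt (adjusted p = 0.0186) and of 0.66 in MK2/3-/- cells (adjusted p = 0.0449).

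**Figure D2:**
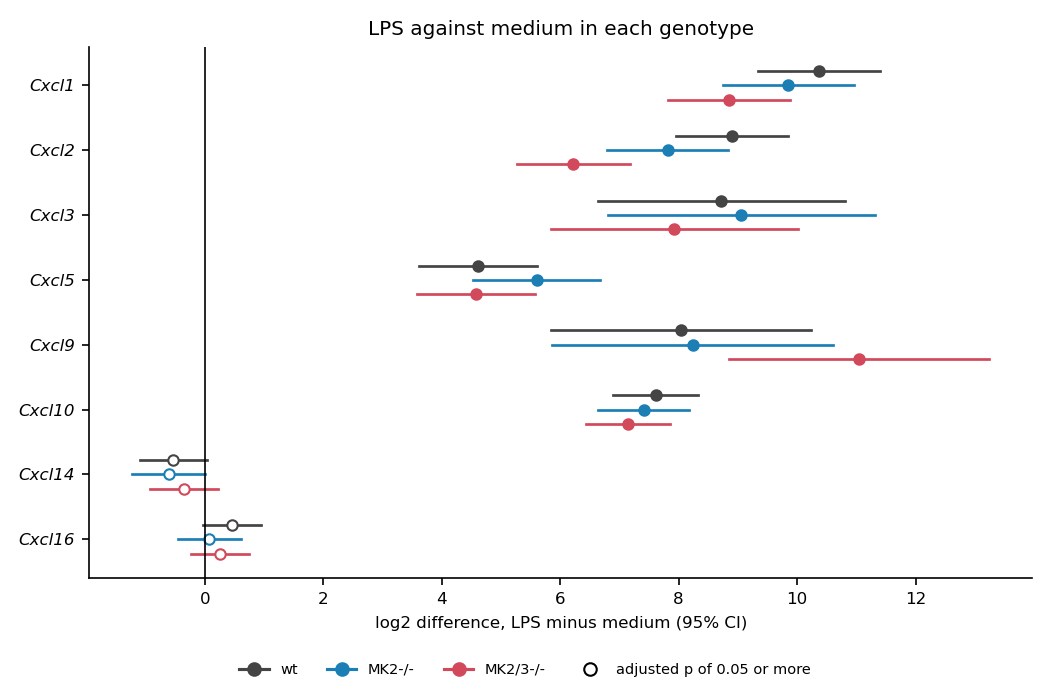
Log2 difference between LPS and medium (horizontal axis) with its 95% confidence interval for the 8 measured CXC chemokines in wt, MK2-/- and MK2/3-/- cells, with filled points for an adjusted p under 0.05. Differences of Cxcl1, Cxcl2, Cxcl3, Cxcl9 and Cxcl10 lay between 6.22 and 11.04, and those of Cxcl14 and Cxcl16 between -0.61 and 0.46. Those of Cxcl5 are drawn from medium signals not well above background and give no measured size.

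Among LPS-treated cells, 1 of the 8 members differed between MK2/3-/- and wt cells after adjustment, Cxcl2, beside 1.64% of all genes tested. Its signal fell by 2.12 log2 units in MK2/3-/- cells (SE 0.45, 95% CI -3.07 to -1.17, adjusted p = 0.0226), to 23.0% of the wt signal. All 4 MK2/3-/- arrays lay below all 4 wt arrays, which gives the smallest p that an exact two-sided permutation test of 4 against 4 arrays allows, 0.0286. In RNA of whole cultures, fewer cells of a type and less RNA per cell cannot be told apart. The adjusted p of Cxcl2 was 0.0642 without wt LPS replicate 1, 0.0734 without wt LPS replicate 4, and 0.0704, 0.0661 and 0.0539 without MK2/3-/- LPS replicates 1, 2 and 3. Over the 38 other settings the Cxcl2 difference ran from -2.38 to -1.92 and its adjusted p from 0.000593 to 0.218, under 0.05 in 28 of them.

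Cxcl1 was lower by a similar amount without passing the adjustment, at -1.79 (SE 0.49, 95% CI -2.82 to -0.77, adjusted p = 0.0744) or 28.9% of the wt signal. Its MK2/3-/- and wt arrays did not overlap either (exact permutation p = 0.0286). Cxcl1 passed in 4 of the 38 other settings, one of them without MK2/3-/- medium replicate 3 (adjusted p = 0.0256). Cxcl3 differed by -1.10 (SE 1.00, adjusted p = 0.696), and its highest MK2/3-/- array, at 12.97, exceeded the lowest wt array, at 12.91. Cxcl5 differed by 0.47 log2 units (adjusted p = 0.742). Cxcl1, Cxcl2 and Cxcl9 were the 3 of 8 members with an unadjusted p under 0.05, beside 13.5% of all genes. Cxcl1 and Cxcl2 were the 2 of 8 members whose MK2/3-/- and wt arrays did not overlap, beside 5.83% of all genes.

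The interferon-induced members did not pass the adjustment either. Cxcl9 was 2.89 log2 units higher in MK2/3-/- than in wt cells (SE 1.05, 95% CI 0.69 to 5.09, adjusted p = 0.204), or 7.42-fold, and 3 of the 4 MK2/3-/- arrays lay above every wt array (exact permutation p = 0.0571). The second Cxcl9 probe gave 2.81 (SE 0.82, adjusted p = 0.0988). Cxcl10 differed by -0.15 (95% CI -0.86 to 0.57, adjusted p = 0.919), and by 0.28 when arrays were scaled to their 75th percentile (adjusted p = 0.706). Cxcl14 and Cxcl16 differed between any genotypes after LPS by 0.02 to 0.31 log2 units, with adjusted p-values of 0.621 or more.

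**Figure D3:**
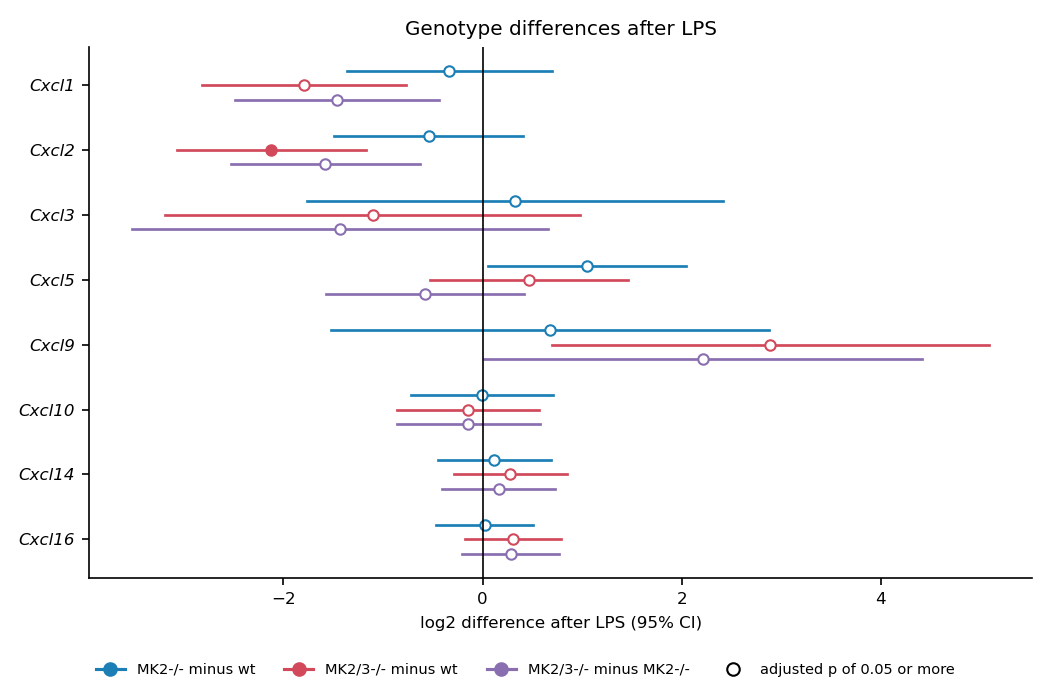
Log2 difference between genotypes after LPS (horizontal axis) with its 95% confidence interval for the 8 measured CXC chemokines, with filled points for an adjusted p under 0.05. The filled point is Cxcl2 in MK2/3-/- minus wt cells, at -2.12, and Cxcl9 lies on the other side of zero in the same comparison, at 2.89.

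Setting MK2/3-/- against MK2-/- cells asks what the additional loss of MK3 changed. None of the 8 members was called, beside 0.158% of all genes. At an unadjusted p under 0.05, Cxcl9 was higher and Cxcl1 and Cxcl2 were lower in MK2/3-/- cells, 3 of 8 members beside 7.94% of all genes. Cxcl1 differed by -1.46 (SE 0.49, adjusted p = 0.371), Cxcl2 by -1.58 (SE 0.45, adjusted p = 0.25) and Cxcl3 by -1.43 log2 units (SE 1.00, adjusted p = 0.774), to 36.3%, 33.5% and 37.1% of the MK2-/- signal. In each of these 3 of the 8 members all MK2/3-/- arrays lay below all MK2-/- arrays (exact permutation p = 0.0286 for each), beside 5.15% of all genes without overlap. Cxcl9 was 2.21 log2 units higher (SE 1.05, adjusted p = 0.627, exact permutation p = 0.114).

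Loss of MK2 alone left all 8 members without a call after LPS, beside 0.0302% of all genes called. Only Cxcl5 had an unadjusted p under 0.05 and was higher, by 1.05 log2 units (SE 0.48, unadjusted p = 0.0398, adjusted p = 0.648), 1 of 8 members beside 7.5% of all genes. Cxcl2 differed by -0.54 (SE 0.45, adjusted p = 0.814), or 68.7% of the wt signal, and was the 1 of 8 members without overlap between MK2-/- and wt arrays (exact permutation p = 0.0286), beside 3.73% of all genes. Cxcl1 differed by -0.33 (adjusted p = 0.919), Cxcl3 by 0.33, Cxcl9 by 0.68 and Cxcl10 by -0.01 log2 units. These 3 comparisons share their arrays pairwise.

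In medium no member was called between genotypes, beside 0.00754% of all genes for MK2-/- against wt, 0.0792% for MK2/3-/- against wt and 0.0453% for MK2/3-/- against MK2-/- cells. All adjusted p-values of the members were 1 in limma. At an unadjusted p under 0.05, 1 member was higher in MK2/3-/- than in wt cells, Cxcl16 by 0.51 log2 units (unadjusted p = 0.0407), beside 4.66% of all genes. None was in the other comparisons, beside 3.4% for MK2-/- against wt and 3.62% for MK2/3-/- against MK2-/- cells. The MK2/3-/- and wt arrays in medium did not overlap for 2 of 8 members, beside 4.05% of all genes, namely Cxcl16 and Cxcl5, of which Cxcl5 was not well above background on any of these arrays.

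The difference between genotypes in the response to LPS was tested as an interaction. No member passed in limma, beside 0.0113% of all genes for MK2/3-/- against wt, 0.00377% for MK2-/- against wt and 0% for MK2/3-/- against MK2-/- cells. The LPS response of Cxcl2 in MK2/3-/- cells minus that in wt cells was -2.68 log2 units (SE 0.64, unadjusted p = 0.00052, adjusted p = 0.345). Cxcl1 gave -1.52 (SE 0.69, unadjusted p = 0.0408, adjusted p = 1) and Cxcl9 3.00 (SE 1.48, unadjusted p = 0.0575, adjusted p = 1). Against MK2-/- cells, the Cxcl2 value was -1.59 (SE 0.67, unadjusted p = 0.0281, adjusted p = 1). At an unadjusted p under 0.05 were 2 of 8 members for MK2/3-/- against wt cells, beside 4.55% of all genes, 1 for MK2/3-/- against MK2-/- cells, beside 2.89%, and 0 for MK2-/- against wt cells, beside 1.92%.

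The LPS arrays of Cxcl9 and Cxcl3 had the same extremes in every genotype. On both Cxcl9 probes and on the Cxcl3 probe, in all 3 genotypes, LPS replicate 2 had the highest and LPS replicate 4 the lowest signal. On the second Cxcl9 probe the LPS signals were 11.62, 13.55, 11.51 and 8.98 in wt, 12.02, 13.17, 11.81 and 11.08 in MK2-/- and 15.23, 15.94, 13.92 and 11.80 in MK2/3-/- cells. Cxcl5 was also lowest in replicate 4 of every genotype, whereas Cxcl1, Cxcl2, Cxcl10, Cxcl14 and Cxcl16 had other extremes in at least 1 genotype. In medium the second probe was well above background on every array, at 5.02 to 6.60 in wt, 5.74 to 5.92 in MK2-/- and 5.37 to 6.63 in MK2/3-/- cells.

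**Figure D4:**
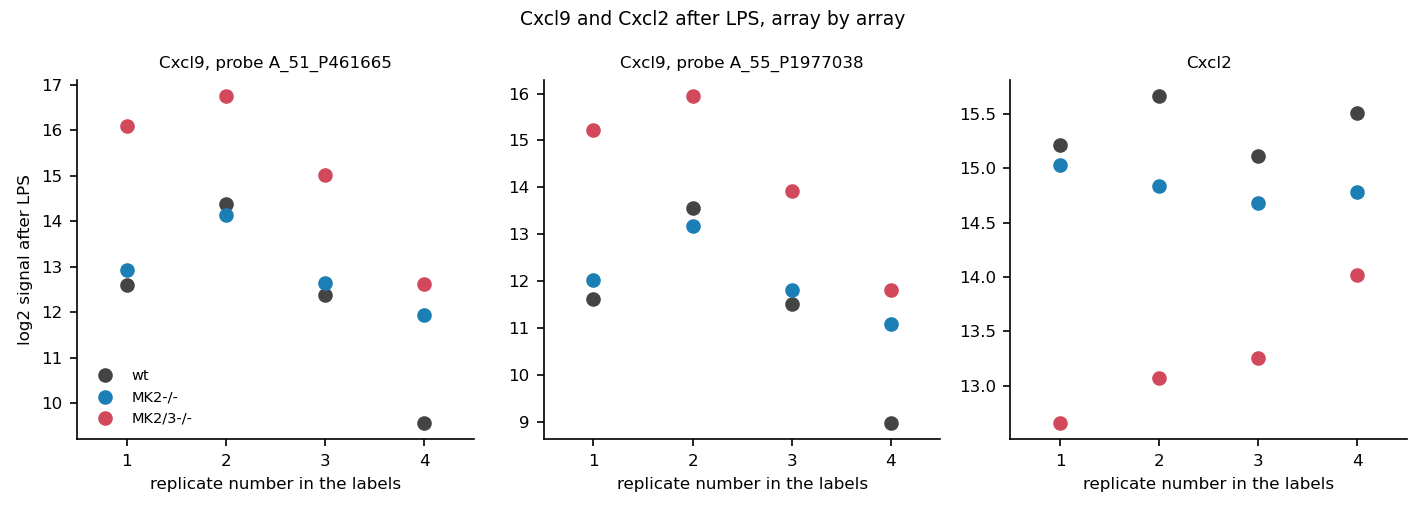
Log2 signal after LPS (vertical axis, scaled for each panel) of Cxcl9 on its probes A_51_P461665 and A_55_P1977038 and of Cxcl2, by the replicate number in the labels (horizontal axis) and genotype (colour). Cxcl9 was highest in replicate 2 and lowest in replicate 4 of every genotype on both probes, whereas Cxcl2 was lowest in MK2/3-/- cells at every number.

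Lck, a T-cell kinase, varied with Cxcl9 and was the 1 of 5 T-cell markers called higher after LPS in every genotype (adjusted p = 0.0238, 0.0131 and 7.7e-05 in wt, MK2-/- and MK2/3-/- cells). It was 2.50 log2 units higher in MK2/3-/- than in wt cells after LPS (adjusted p = 0.11). Its log2 signal after LPS ran from 8.06 to 10.85 (mean 9.20) in wt, from 7.96 to 11.16 (mean 9.57) in MK2-/- and from 9.18 to 13.35 (mean 11.70) in MK2/3-/- cells, and from 6.11 to 7.33 in medium. The summed linear signal of the 5 T-cell markers ran from 1310 to 3210 after LPS in wt, 1640 to 3350 in MK2-/- and 1800 to 11600 in MK2/3-/- cells. It ran from 1010 to 1380 in wt, 957 to 1430 in MK2-/- and 996 to 2430 in MK2/3-/- cells in medium. Over the 23 arrays, after subtraction of the group means, the correlation of the summed T-cell markers with Cxcl9 was r = 0.76, where arrays share slides and cultures. Those with Cxcl3, Cxcl5 and Cxcl10 were 0.439, 0.481 and 0.418, and those with the remaining members ran from -0.397 to 0.045. Of the other T-cell markers, Cd3e was well above background on every array, Cd3g on 2 of 23 arrays and Cd8a on none. Between MK2/3-/- and wt cells after LPS, Cd3e differed by 0.10, Cd4 by -0.10, Cd8a by 0.04 and Cd3g by 1.02 log2 units, without a call. Mean log2 signals of Cd4 after LPS were 4.79 in wt, 4.71 in MK2-/- and 4.69 in MK2/3-/- cells. The summed stromal markers, such as Col1a1, ran from 527 to 105000 over all arrays. After LPS they ran from 4020 to 86800 in wt, 1670 to 32100 in MK2-/- and 994 to 48400 in MK2/3-/- cells. They had correlations of -0.502 with Cxcl3, -0.602 with Cxcl9, -0.663 with Cxcl10 and 0.621 with Cxcl14. Those with Cxcl1, Cxcl2, Cxcl5 and Cxcl16 were -0.124, 0.004, -0.184 and 0.121. The summed neutrophil markers, 8 of 9 measured, ran from 3010 to 18700. Their correlations were 0.405 with Cxcl1, 0.364 with Cxcl2, 0.309 with Cxcl3 and -0.126 to 0.247 with the remaining members. The summed macrophage markers had correlations from -0.457 with Cxcl14 to 0.538 with Cxcl10. The summed dendritic cell markers ran from 106 to 919 in medium and from 1270 to 2710 after LPS. Their correlations were 0.431 with Cxcl1, 0.441 with Cxcl2, 0.541 with Cxcl3, 0.417 with Cxcl10 and -0.364 to 0.125 with the remaining members. Zbtb46 was the 1 of these 5 dendritic cell markers called higher after LPS in every genotype. The summed NK-cell markers ran from 35.4 to 580 and had correlations from -0.35 with Cxcl9 to 0.495 with Cxcl2. Of 5 NK-cell markers, Klrb1c was called higher after LPS in wt (adjusted p = 0.00991, limma), MK2-/- (0.00057) and MK2/3-/- cells (2.49e-05). Its mean log2 signals were low, at 2.19, 2.36 and 2.31 in medium and 3.86, 4.87 and 5.34 after LPS in the same order. None of the 5 NK-cell markers was well above background on all LPS arrays of wt or on all LPS arrays of MK2-/- cells. The summed endothelial markers ran from 189 to 760 after LPS in wt, 214 to 1160 in MK2-/- and 217 to 923 in MK2/3-/- cells. They had correlations of 0.524 with Cxcl3, 0.484 with Cxcl5, 0.612 with Cxcl9, 0.443 with Cxcl10 and -0.593 with Cxcl14. Of 5 erythroid markers, Hbb-bt was called higher in MK2/3-/- than in wt cells after LPS (1.20, adjusted p = 0.0152) although not well above background on any LPS array. The part of these cell types in the values of the chemokines was not tested.

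After subtraction of the group means, over the 23 arrays, the log2 signals of Cxcl1 and Cxcl2 had r = 0.788, Cxcl1 and Cxcl3 had r = 0.777 and Cxcl2 and Cxcl3 had r = 0.559. Cxcl5, of the same cluster, had r of 0.00447 with Cxcl1, -0.254 with Cxcl2 and 0.0679 with Cxcl3. Across the clusters, Cxcl5 and Cxcl9 had r = 0.505, Cxcl3 and Cxcl10 had r = 0.503, and Cxcl2 and Cxcl9 had r = -0.35. Cxcl9 and Cxcl10 had r = 0.334. Cxcl14 had r = 0.583 with Cxcl16 and r = -0.576 with Cxcl10. These correlations are descriptions, since the arrays share cultures and slides.

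Over the 23 arrays, among 15931 genes well above background on all arrays of a group, the pattern of Cxcl2 was most like that of Cxcl1 (Pearson r = 0.9928), Tnf (0.9871), Osgin2 (0.9869), Adora2b (0.9855) and Jdp2 (0.9833). The pattern of Cxcl10 was most like those of the transcript entry AK141540 (0.9922), Il1b and Trex1 (0.9918 each), Ifit1 (0.9916) and the transcript entry XR_168557 (0.9915). Tnf and Il1b encode inflammatory cytokines, and Ifit1 is an interferon-stimulated gene. These r were taken over medium and LPS arrays together, without subtraction of the group means, so they include the rise with LPS. Taken this way, Cxcl2 and Cxcl10 had r = 0.969, beside -0.0928 after that subtraction. Cxcl1 and Cxcl2 had 0.788 after it.

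None of the 6 receptor genes was called in any comparison. At an unadjusted p under 0.05, Ackr1 was higher after LPS in wt and Cxcr1 in MK2-/- cells, and after LPS Cxcr6 was lower in MK2/3-/- than in wt and Cxcr1 than in MK2-/- cells, with smaller responses of both in the same comparisons. Cxcr3, the receptor of Cxcl9 and Cxcl10, had log2 signals of 9.38 to 11.33 and was well above background on every array, and Cxcr6, the receptor of Cxcl16, had group means of 5.11 to 5.99. Cxcr1, Cxcr2 and the atypical receptors Ackr1 and Ackr3 were not well above background on most arrays. Nor was any of 6 other CXC ligands called, among them Pf4, known from platelets, with group means of 14.01 to 15.21, and the stromal chemokine Cxcl12, which ran from 2.11 to 10.31. Pf4 was the 1 of them at an unadjusted p under 0.05, lower in MK2-/- and in MK2/3-/- than in wt cells both in medium and after LPS.

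Of the genes of the signalling pathways, all 10 listed genes of the Tlr4 and NF-kB pathway responded to LPS in every genotype, 9 higher and 1 lower. Nfkbia, the inhibitor of NF-kB that it induces, rose by 3.54, 3.32 and 3.32 log2 units in wt, MK2-/- and MK2/3-/- cells, and Tlr4, which was called lower, gave -0.93, -1.04 and -0.74. Of the interferon pathway genes, Ifnb1, Ifnar1 and Irf1 rose in every genotype, and Stat2 and Irf3 also passed in MK2/3-/- cells. The interaction tests of Stat2 and Irf3 between genotypes gave an adjusted p of 1 in limma in every comparison. Of 6 genes for proteins that bind AU-rich elements, Zfp36, which encodes tristetraprolin, rose by 2.27, 1.86 and 2.27 and Zfp36l2, called lower, gave -4.92, -6.30 and -5.64 log2 units, and Hnrnpd rose in every genotype. Zfp36l1 was called lower in MK2-/- (-3.45) and MK2/3-/- cells (-2.76) and gave -1.11 in wt without a call (adjusted p = 0.154, limma). Its interactions against wt, -2.35 in MK2-/- and -1.65 in MK2/3-/- cells, did not pass the adjustment. Of 6 proteases that act on CXC chemokines, Adam17 rose by 1.16, 1.05 and 0.89, while Adam10 differed by -0.18, -0.30 and -0.19 without a call. No gene of these 4 lists was called between genotypes after LPS in limma. At an unadjusted p under 0.05, 1 was higher and 4 were lower in MK2-/- than in wt cells, beside 7.5% of all genes. In MK2/3-/- cells 1 was higher and 4 were lower than in wt, beside 13.5%, and 2 were higher and 1 lower than in MK2-/- cells, beside 7.94%. The numbers for the lists are counts of genes over all 4 lists and not shares, so they are not on the scale of the percentages. Zfp36l1 was among the lower ones against wt, at -2.52 in MK2-/- (adjusted p = 0.117, limma) and -1.87 in MK2/3-/- cells (adjusted p = 0.0627). Interferon beta mRNA, Ifnb1, had mean log2 signals after LPS of 14.87 in wt, 13.15 in MK2-/- and 13.69 in MK2/3-/- cells, with differences from wt of -1.72 (adjusted p = 0.338) and -1.18 (adjusted p = 0.241).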

How the data were processed

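Total RNA of 23 macrophage samples was hybridised to one-colour Agilent mouse arrays. The deposited scanner files hold fluorescence intensity per spot, which the authors read with Agilent Feature Extraction 11.0.1.1 (background-subtracted and detrended). 2 arrays had no multiplicative detrend fit. The authors also deposited a table of log2 values, which served only as an alternative, and no column was left unassigned. The methods describe the replicates as independent experiments, and precision is limited by how few arrays each group holds.

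From these files, control spots and outlier spots were left out and replicate spots averaged. As in the methods, signals were quantile normalised over all arrays (after log2) and probes with an NCBI accession kept, whereas the median baseline step of the methods was not applied. RefSeq accessions were named through the RefSeq table for GRCm38.p6 (20886 genes). Where a gene had more than 1 probe, the fit took the probe that LPS induced most in wt. Each group was fitted in limma 3.58.1 (R 4.3.3), all 6 groups in 1 fit, with 12 contrasts and Benjamini-Hochberg adjustment over 26512 genes at 0.05. Exact two-sided permutation tests were run for single genes. Correlations are Pearson's r. The limma steps were tested on simulated data. Figures were drawn with matplotlib 3.10.9.

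Medium and LPS arrays of a genotype with the same experiment letter and mouse age were taken as 1 culture (11 pairs). Their deviations from the group means correlated with r of 0.36 to 0.774 over expressed genes, and a fit with the culture as a random block changed no call of a member. The members, pathway and marker lists were chosen with earlier results of these data known. The text names all members, the receptors, some of the listed genes that passed the test, and the 5 genes most like Cxcl2 and Cxcl10. Other listed genes, such as the macrophage marker Cd14, passed for LPS and are not named in the results. It also names, chosen after their values were seen, Lck, Adam10, Ifnb1, Pf4, Cxcl12 and single markers. The result for 1 gene of the interferon pathway list is not reported here.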

Additional observations from a re-analysis of the deposited data

Results flagged for a closer look

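Of 45 groups of 4 arrays that were tested for a sample far from the others, 1 stood out, where chance flags about 1 in 20. The second Cxcl9 probe, A_55_P1977038, had a log2 signal of 6.60 on wt medium replicate 3, while the other wt medium arrays lay at 5.02, 5.26 and 5.12. The other Cxcl9 probe was highest on the same array, at 6.76.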

How the results depend on the processing

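The 8 members were followed under 38 other settings in 42 differences between groups, in 1592 values, of which 1563 kept their direction and side of the threshold. In 9 of the 12 comparisons the count of called members stayed within 1.5 times of the reported one in every setting. For MK2/3-/- against wt after LPS (1 member, Cxcl2), the count was 2 with normexp background correction, 2 with dim probes left out and 2 with the experiment letter as a replicate block (Cxcl1 adjusted p = 0.041, Cxcl2 adjusted p = 0.011). It was 0 with only the compared groups in the fit (Cxcl2 adjusted p = 0.116) and 0 with the methods' t-test after Benjamini-Hochberg adjustment (4 at its unadjusted threshold, where it called 1 member for MK2-/- against wt and 3 for MK2/3-/- against MK2-/- after LPS and 0 in medium, all 0 once adjusted; of all genes it called 9.34%, 5.39% and 6.6% after LPS). It ran from 0 to 2 when 1 array was left out, with 0 without wt LPS replicate 1 or 4 or MK2/3-/- LPS replicate 1, 2 or 3, and 2 without MK2/3-/- medium replicate 3. In an alternative chosen after seeing the data, which leaves out all arrays of 1 experiment letter, it was 0 without letter a (Cxcl2 adjusted p = 0.133), 0 without b (0.218) and 0 without e (0.123). With normexp, 2 members were called for MK2/3-/- against MK2-/- after LPS (0 otherwise; Cxcl1 and Cxcl2) and 1 in the interaction of MK2/3-/- against wt (Cxcl2, -2.51, adjusted p = 0.0311). The share of all genes called for MK2/3-/- against wt after LPS, 1.64%, was 2.24% with normexp, 3.74% with dim probes left out, 3.64% with the letter block, 0.0226% with only the compared groups and 0.0189% with the t-test. The causes were not tested.

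Uncalled differences changed sign in few settings. Scaling to the 75th percentile, which moved the median of all genes by -0.06 to 0.21, gave Cxcl14 0.046 for LPS in MK2/3-/- cells and Cxcl10 0.28 for MK2/3-/- against wt and 0.010 against MK2-/- after LPS, and normexp gave Cxcl10 0.024 for the last. Cxcl16 for LPS in MK2-/- cells ran from -0.18 to 0.33 when 1 array was left out and was -0.10 without letter a. With the letter block, Cxcl16 in wt (0.46, adjusted p = 0.0443) and Cxcl14 in MK2-/- cells (-0.65, adjusted p = 0.0398) passed for LPS.

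Experiment letters recur across genotypes, but the labels do not say that a letter marks a shared day. Over all genes, 16 of 22 pairs of arrays with the same letter and treatment in different genotypes correlated above 0.1 in their deviations from the group means. Differences between MK2/3-/- and wt LPS arrays of the same letter ran from -2.24 to -0.98 for Cxcl1 and from -2.59 to -1.49 for Cxcl2. They ran from -1.50 to -0.85 for Cxcl3, -0.53 to 1.11 for Cxcl5 and 2.36 to 3.50 for Cxcl9. For Cxcl10 they were -0.23 to -0.04, for Cxcl14 -0.09 to 0.50 and for Cxcl16 0.08 to 0.60.

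Depth could not be judged beyond the signal over background, which leaves Cxcl5 in medium with a rough bound only.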
